A study of Homo sapiens with 12 samples.

Results

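The 6 vector control arrays of PANC-1 cells were taken from a series of 12 expression arrays, by the array titles alone, and the other 6 arrays (cells with a hairpin against TIMP1) were not analysed here. PANC-1 is an established human cell line from a ductal carcinoma of the pancreas. The titles call these arrays WildType, but the cells were not parental: they carried the integrated empty pLKO.1 puro lentiviral vector and were grown in DMEM with 10% FCS and 1 µg/ml puromycin, so the antibiotic and the integrated vector were common to all 6 arrays. Each array was hybridised with labelled cRNA from total RNA, and the labels do not say whether the 6 replicates came from separate cultures. The spread between arrays may therefore be technical. Parental PANC-1 cells and normal duct cells were not analysed here.

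Ductal carcinoma cells of the pancreas keep part of the keratin and adhesion programme of the duct and have lost the digestive enzyme programme of the acinus. PANC-1 is known as a line with both epithelial keratins and vimentin. TIMP1, the gene the study set out to lower, encodes a secreted inhibitor of matrix metalloproteinases that also signals through tetraspanins at the cell surface. A bead array reports, for each probe, a fluorescence signal and a detection p-value, the chance of so high a signal among the array's negative controls.

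A probe was called detected when its detection p was under 0.05 on all 6 arrays, which held for 14421 of 47323 probes (30.5%). At the gene level 8870 of 20046 named genes had at least 1 such probe (44.2%), 9644 had no probe detected on any of the 6 arrays (48.1%) and 1532 lay between. Of the named protein-coding genes, 8489 of 17776 were detected (47.8%). The dimmest detected probe of an array had a signal between 233.2 and 269.2, and the brightest probes reached 16910 to 19220, so the usable range covered less than 2 orders of magnitude. The arrays were alike, with 15681 to 16565 probes detected on each and pairwise Pearson correlations of 0.991 to 0.994 across the detected probes, which are not independent replicates. A gene that was not detected gave a signal within the negative controls, which does not show that its RNA was absent.

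Each gene is given below by the deposited linear signal of its brightest detected probe, as the lowest, median and highest of the 6 arrays, and by the percentile of its mean normalised log2 intensity among the 8870 detected genes. Probes differ in affinity, so the percentile orders probe signals and not amounts of RNA. Among the 2028 genes with 2 or more detected probes, the brightest probe had a median of 1.89 times the signal of the dimmest, and in the extreme case 53.3 times. Of the genes that had several probes with at least 1 of them detected, 62% also had a probe that was not, so that non-detection by 1 probe carries less weight than non-detection by several. These arrays measure bulk RNA, in which fewer cells expressing a gene and less RNA per cell cannot be told apart.

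The 5 marker genes fixed for the line were each detected on all 6 arrays. TIMP1 gave signals from 12620 to 15949 with a median of 14001 and stood at rank 42 of the detected genes, with a normalised log2 intensity of 13.77 ± 0.079 (SD, n = 6). Vimentin (VIM), the intermediate filament protein of mesenchymal cells, gave signals from 11187 to 14224 with a median of 12733 and lay at the 98.9 percentile. All 6 arrays of both genes were near the top of the measured range. The receptor tyrosine kinase AXL gave signals from 2923 to 3515 with a median of 3109.9, at the 84.6 percentile. The simple epithelial keratins KRT8 and KRT18, which pair in filaments, gave signals from 2653 to 3103 with a median of 3005 for KRT8 and signals from 833 to 951 with a median of 886 for KRT18. KRT8 thus lay at the 83.2 percentile and KRT18 near the middle of the detected genes, at the 50.7 percentile, and no array of any of the 5 genes came near the detection limit.

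**Figure D1:**
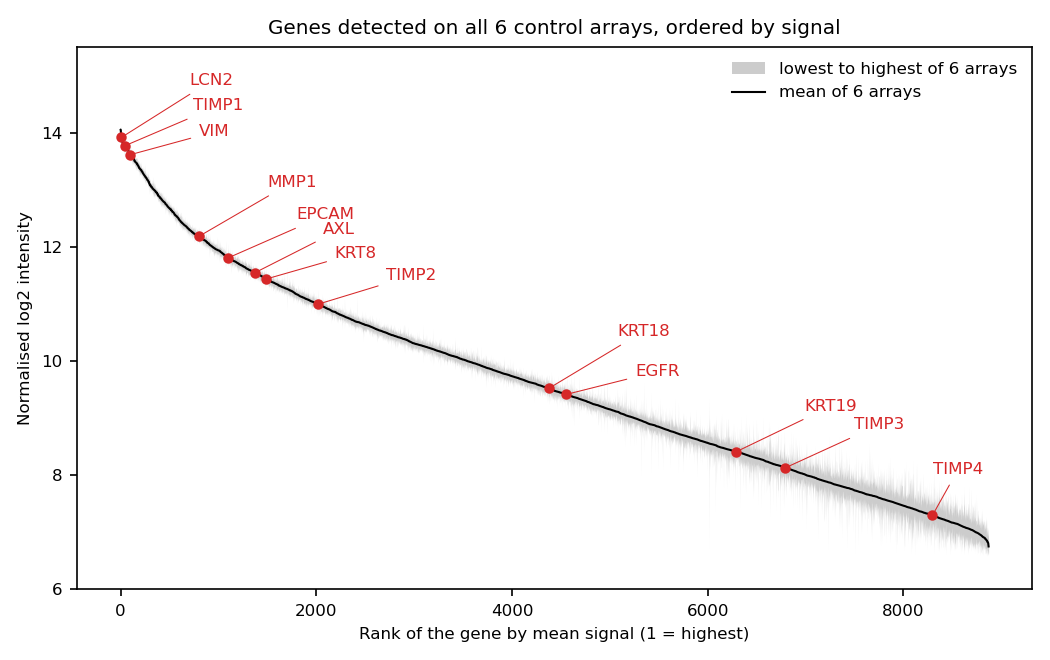
Normalised log2 intensity (y axis) of the 8870 detected genes against their rank by mean signal (x axis, 1 is the highest); the line is the mean of the 6 control arrays and the grey band runs from the lowest to the highest array. TIMP1, LCN2 and VIM sit at the top of the curve, AXL and KRT8 in its upper part, KRT18 near the middle and TIMP4 near the dim end, where the band is widest.

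The 250 bases upstream of the annotated transcription start are shown for 4 detected secreted genes, since promoters bear on which genes a cell transcribes. LCN2, CXCL8 and TIMP1 were among the brightest genes, and CXCL1 lay at the 80.8 percentile. The 4 are examples and do not stand for all bright secreted genes. The sequences come from a RefSeq promoter table of assembly GRCh38.p14, all on the plus strand, written 5′ to 3′ and ending at the base before the start. CXCL8 lies at chr4:73740319-73740568, CXCL1 at chr4:73869143-73869392, LCN2 at chr9:128149203-128149452 and TIMP1 at chrX:47582186-47582435. In the first 3 the capitals mark a match to the NF-kB motif GGANNTTCC on either strand, and in TIMP1 they mark CpG dinucleotides.
CXCL8: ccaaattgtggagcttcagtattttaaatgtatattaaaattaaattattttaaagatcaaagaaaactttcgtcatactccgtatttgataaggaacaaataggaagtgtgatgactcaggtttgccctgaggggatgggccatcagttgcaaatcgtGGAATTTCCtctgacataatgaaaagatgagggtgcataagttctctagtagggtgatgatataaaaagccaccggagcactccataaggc
CXCL1: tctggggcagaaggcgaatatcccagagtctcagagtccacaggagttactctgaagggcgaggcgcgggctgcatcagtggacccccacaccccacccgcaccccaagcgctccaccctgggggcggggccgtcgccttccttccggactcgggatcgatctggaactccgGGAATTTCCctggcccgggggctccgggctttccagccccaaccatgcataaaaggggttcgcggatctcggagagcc
LCN2: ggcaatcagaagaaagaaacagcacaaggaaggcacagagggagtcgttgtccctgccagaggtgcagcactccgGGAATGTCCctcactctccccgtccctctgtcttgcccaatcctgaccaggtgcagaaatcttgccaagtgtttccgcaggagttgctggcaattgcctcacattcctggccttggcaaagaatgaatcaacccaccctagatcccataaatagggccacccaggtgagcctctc
TIMP1: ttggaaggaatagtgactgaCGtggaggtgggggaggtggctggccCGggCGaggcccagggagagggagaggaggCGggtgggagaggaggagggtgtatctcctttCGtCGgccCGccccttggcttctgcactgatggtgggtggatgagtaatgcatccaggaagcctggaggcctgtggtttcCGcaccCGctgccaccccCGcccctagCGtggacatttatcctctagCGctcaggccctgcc
The match began -91 bases from the start in CXCL8, -78 in CXCL1 and -175 in LCN2. TIMP1 had no match and 12 CpG dinucleotides in its window.

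The motif occurred in 3.84% of the 35116 promoters of the table. Counted by gene, with a match in any promoter of the gene, it occurred in 5.15% of the 14440 measured protein-coding genes with a promoter there. A gene with several promoters has more chances of a match, so the shares by promoter and by gene are not comparable. By gene, the motif occurred in 6 of 14 detected cytokine genes with a promoter (IL6, CXCL8, CXCL1, CXCL2, CXCL3 and LCN2). It also occurred in 3 of 11 cytokine genes detected on no array (TSLP, CXCL5 and CXCL10). These 6 and 3 genes are named whether or not the naming rule covers them. The bright cytokine genes MIF and IL1B had no match. A match is a description of the letters and not of binding. The CXC chemokine genes are neighbours that arose by duplication, so their promoters are not independent. Across all measured coding genes the promoters of detected genes held more CpG: the median observed over expected CpG was 0.836 in 7148 genes detected on all arrays and 0.522 in 6231 detected on none, and it was above 0.6 in 83.2% and 44.8% of them. The TATA box sequence TATAAA stood in 3.62% of the detected and 9.85% of the undetected genes' windows, and among the detected genes the median CpG ratio ranged from 0.795 below the 25th percentile of signal to 0.869 above the 90th.

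The 25 detected genes with the highest signals were mostly those of cell structure, translation and energy metabolism. Cytoplasmic actins ACTG1 and ACTB held ranks 1 and 3, with ACTG1 at signals from 15484 to 18390 with a median of 16913. The elongation factor EEF1A1 gave signals from 16782 to 17991 with a median of 17171. TUBA1C (an alpha tubulin), TMSB4X (the actin monomer binding thymosin beta 4), ANXA2 (annexin A2) and S100A4 (a calcium binding protein linked to motility) were also among them. So were the ribosomal protein genes RPL3, RPL41 and RPS12, and the genes TPT1 and BTF3. The redox and iron storage genes TXN and FTL, the lactate dehydrogenase subunit LDHA, the ADP/ATP carrier SLC25A5 and the respiratory subunit COX7C also belonged to the 25. The nucleoside diphosphate kinase NME1, the histone gene H3-3A and the antizyme gene OAZ1 did too. The 3 entries RPSAP9, RPL13AP5 and ATP5F1EP2 are pseudogenes nearly identical to expressed genes, and their probes may not tell the copies apart. Among the 100 brightest probes, 53 had no gene symbol in the annotation used here, so the ranking covers named genes alone.

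LCN2 and MYC were also among the 25. LCN2, which encodes the secreted siderophore binding protein lipocalin 2, gave signals from 14049 to 17581 with a median of 15285 and held rank 8. MYC, the transcription factor that drives growth and ribosome synthesis, gave signals from 14687 to 16775 with a median of 14995 and held rank 15. Both genes were near the top of the measured range on all 6 arrays.

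Of the 49 gene lists used, 1140 of 1229 genes were measured and 681 were detected (59.7%), beside 44.2% of all named genes. The pathway lists had 449 of 558 measured members detected (80.5%), the surface lists 94 of 172 (54.7%), the secreted lists 102 of 200 (51.0%) and the lineage lists 46 of 156 (29.5%). The lists of other cell types had 14 of 99 detected (14.1%). Lists were drawn up by hand from well-studied genes, so their shares describe these genes and were not tested. With a stricter detection p of 0.01 on all 6 arrays, 556 list genes remained, and 14 of the lists lost members by more than 1.5 times. The detected epithelial adhesion and identity genes then numbered 6, the acinar genes 3, the islet genes 1, the growth factors 11, the integrins 7 and the NF-kB genes 8. The classical subtype genes then numbered 4, the genes of MHC and antigen processing 7, the interferon-stimulated genes 13, the hypoxia targets 11, the cell death regulators 12, the hepatocyte genes 1 and the muscle and adipose genes 0.

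**Figure D2:**
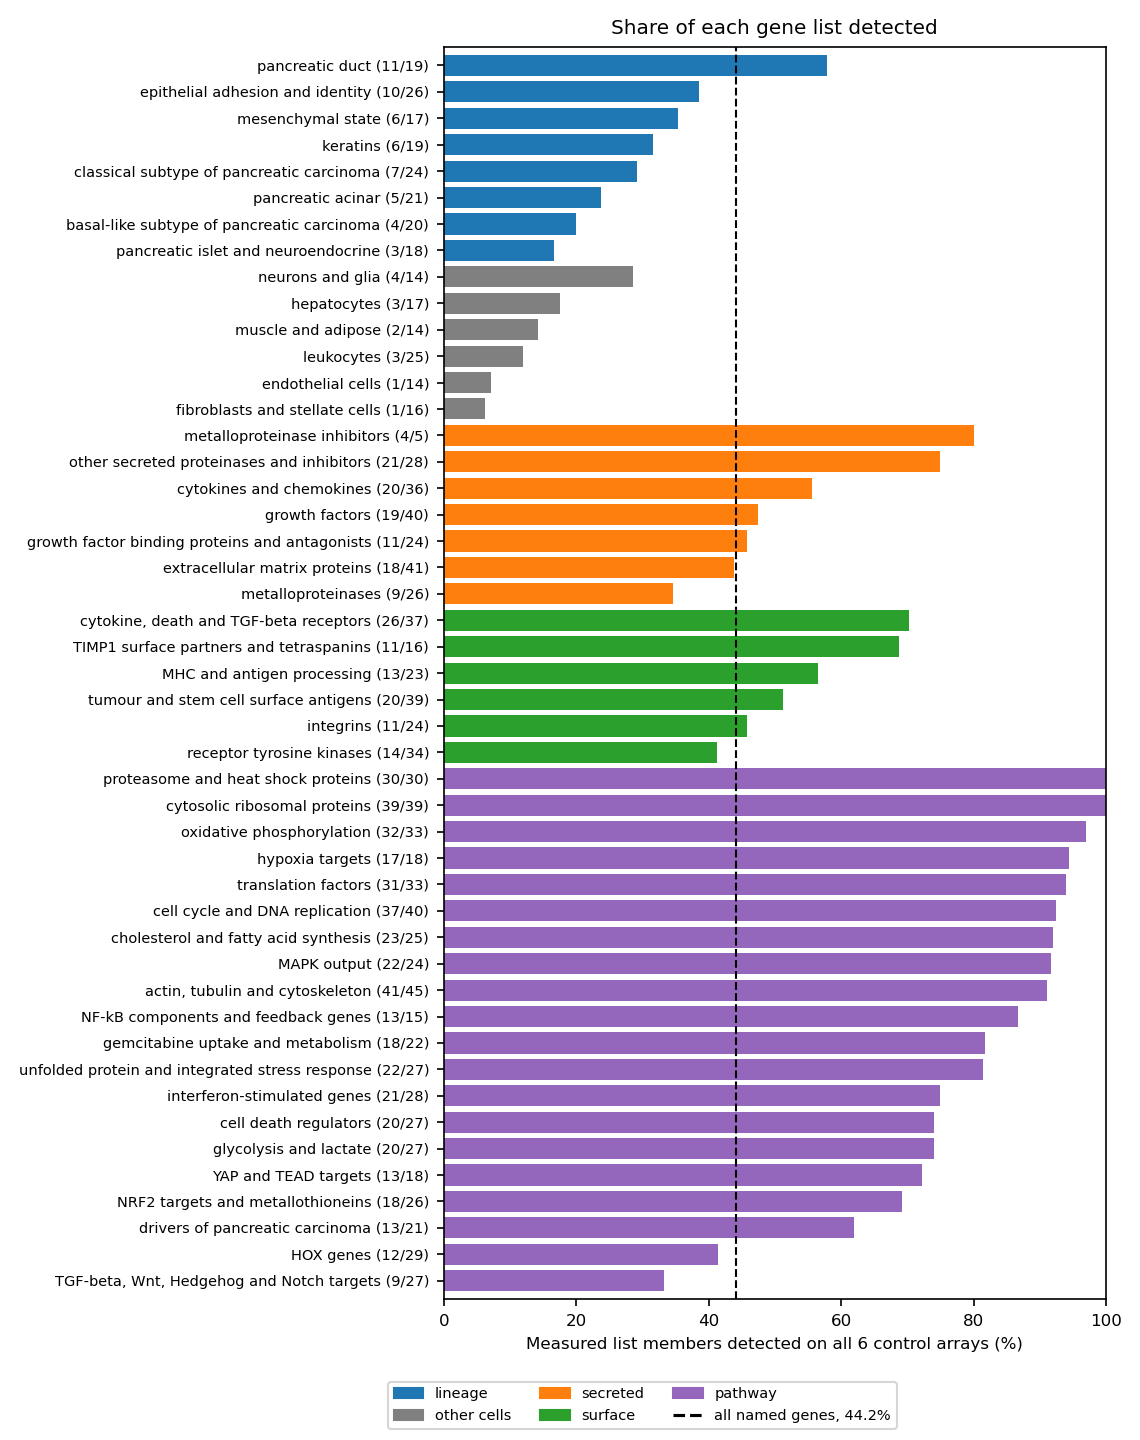
Percentage of the measured members of each gene list shown that were detected on all 6 control arrays (x axis), with the counts beside each list name and bars coloured by class of list. The dashed line marks 44.2%, the share over all named genes; every ribosomal and proteasome list member was detected, against 1 of 16 fibroblast and stellate cell markers.

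Epithelial identity was mixed. Of 26 measured genes of epithelial adhesion and identity, 10 were detected and 15 were on no array. The adhesion molecule EPCAM gave signals from 3466 to 3969 with a median of 3727, at the 87.6 percentile. The junction genes JUP (plakoglobin), CLDN1 (claudin 1), DSG2 (desmoglein 2) and TJP1 (ZO-1) had medians of 2734, 2667, 1568 and 1546, and the epithelial transcription factor ELF3 had one of 701. E-cadherin (CDH1), the core adhesion molecule of epithelia, was not detected by its 1 probe, which gave signals from 132 to 153 with a median of 147. CLDN7, OCLN, DSC2, PKP3 and the splicing regulator ESRP1 were also on no array. EPCAM, JUP, CLDN1, DSG2 and TJP1 were thus well above background while E-cadherin was within it.

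Of 19 measured keratin genes, 6 were detected. KRT80, found in many epithelia, and KRT10, best known from differentiated epidermis, had medians of 5390.1 and 3602. KRT7 gave signals from 2099 to 2429.6 with a median of 2232 and KRT19, the keratin most used as a duct marker, gave signals from 455 to 560.2 with a median of 493. KRT19 was the dimmest of the 6, at the 29.1 percentile. KRT1, KRT2, KRT3, KRT4, KRT5 and KRT9, keratins of stratified epithelia, were on no array.

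Of the 17 genes of the mesenchymal state, 6 were detected, 10 were on no array and PRRX1 was detected on 4. S100A4 and VIM were among the brightest genes of the arrays, with medians of 15512 and 12733. TGFBI, a matrix protein induced by TGF-beta, gave signals from 3174 to 4032 with a median of 3378. The collagen cross-linking enzyme LOX and the transcription factor SNAI2 were dim, with medians of 397 and 277, and SNAI2 lay at the very bottom of the detected genes. The transcription factors of the mesenchymal programme ZEB1, ZEB2, SNAI1, TWIST1, TWIST2 and FOXC2 were each on no array, as were N-cadherin (CDH2), fibronectin (FN1, 3 probes), SPARC and MMP2. ZEB1 gave signals from 155 to 182 with a median of 161, within the negative controls on every array.

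Of 19 measured duct genes, 11 were detected. FOXA2, a transcription factor of foregut endoderm, gave signals from 5542 to 6446 with a median of 5776, at the 93.2 percentile. SOX9, the transcription factor of the duct and its progenitors, gave signals from 1838 to 2191 with a median of 2027. The trefoil peptides TFF3 and TFF2, secreted with mucus, and the phosphoprotein SPP1 had medians of 3006, 1569.8 and 1252. The carbonic anhydrases CA2 and CA4, the bicarbonate transporter SLC4A4 and the transcription factor ONECUT1 were on no array.

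Of 21 measured acinar genes, 5 were detected and 16 were on no array. The trypsinogen genes PRSS3 and PRSS2 were very bright, with signals from 12627 to 14582 with a median of 13804 for PRSS3 and signals from 12369 to 15172 with a median of 13345 for PRSS2, and PRSS1 had a median of 3112. The trypsinogens are near-identical copies, so probe signal cannot be assigned to 1 of them with certainty. CELA3A (an elastase, itself 1 of a pair of near copies) and the transcription factor NR5A2 were dim, with medians of 351 and 299.6. The enzyme genes CTRB1, CTRC, CPA1, CPB1, CELA1 and CELA2A were on no array, so that trypsinogen stood apart from the other digestive enzymes. In the islet list, 3 of 18 measured genes were detected: the transcription factor ISL1 had a median of 992, and CHGB (chromogranin B) and SSTR2 (a somatostatin receptor) were dim. The hormone genes INS, GCG, SST and IAPP and the endocrine markers CHGA and SYP were on no array.

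The classical and basal-like signatures of pancreatic carcinoma separate tumours with more and with less differentiated transcription. Of 24 measured classical genes 7 were detected, and of 20 measured basal-like genes 4. The detected classical genes were the secreted peptides TFF3, TFF2 and TFF1, AGR2 (a disulphide isomerase of mucus cells), SPINK4 and the annexin ANXA10 among the named, with AGR2 at signals from 1039 to 1350.2 with a median of 1224. The detected basal-like genes were the glucose transporter SLC2A1, KRT7, the long non-coding RNA UCA1 and TNS4, with SLC2A1 at signals from 2415 to 2967 with a median of 2640.4. Both shares, 29.2% and 20%, were under the 44.2% of all named genes. No subtype was assigned.

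**Figure D3:**
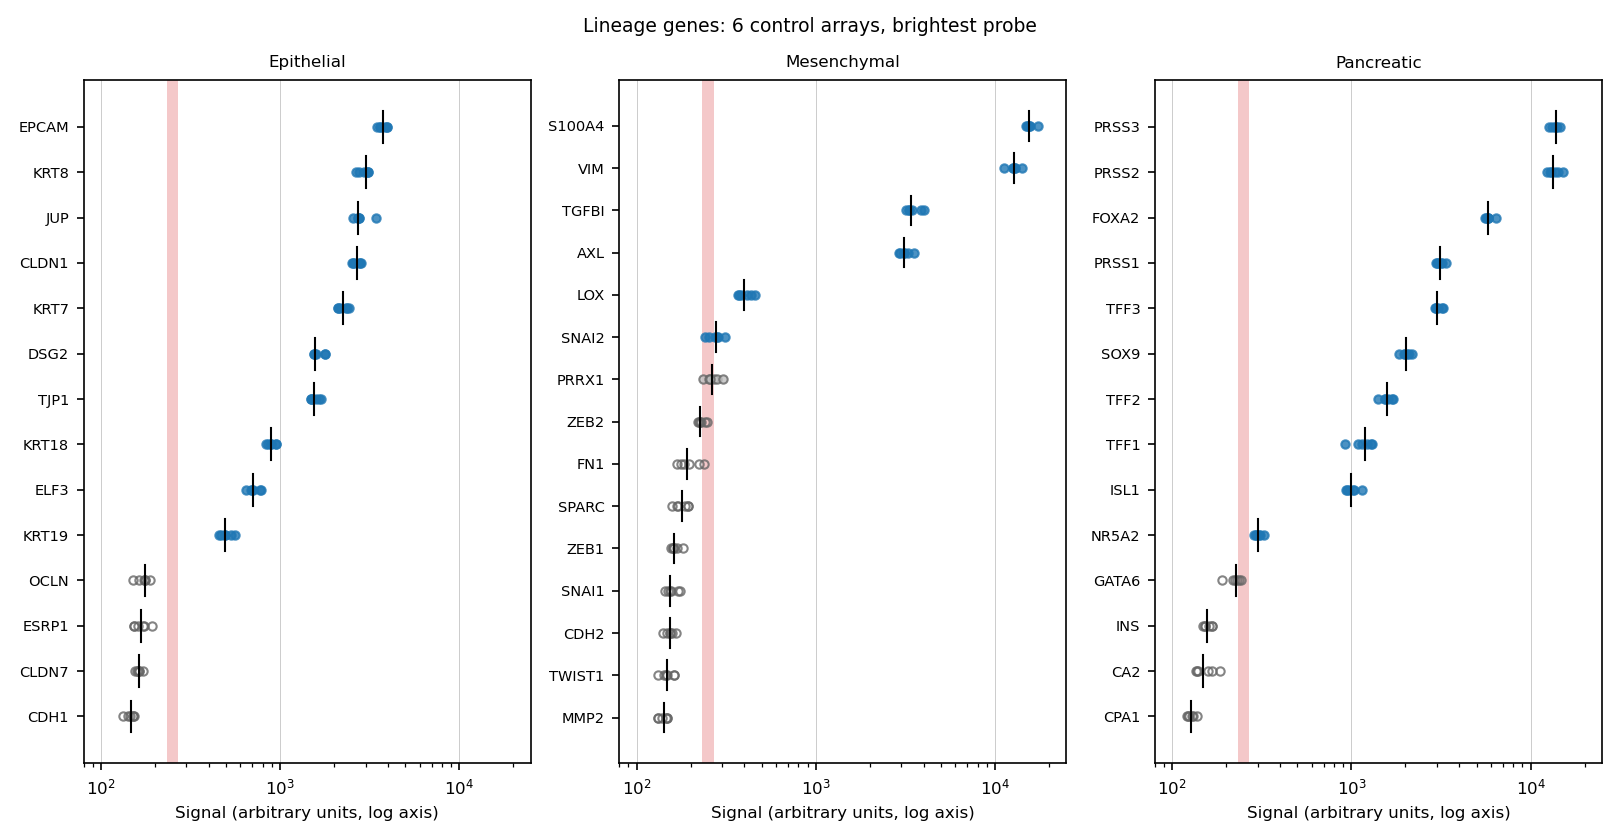
Linear signal in arbitrary units (x axis, log scale) of the brightest probe of named epithelial, mesenchymal and pancreatic genes on the 6 control arrays, 1 circle per array, with the median as a black tick; filled blue circles are genes detected on all 6 arrays, grey on some and open on none. The red band spans 233.2 to 269.2, the dimmest detected signal of each array; VIM and S100A4 lie far to its right and CDH1, CDH2, ZEB1 and FN1 at or left of it.

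Markers of other cell types were mostly within background. Of 25 measured leukocyte genes 22 were on no array, PTPRC, CD2, CD3D, CD3E, CD3G and CD4 among them, and the summed signal of the list varied from 6292 to 6880. The 3 detected were CD14 (a lipopolysaccharide co-receptor, median 1527), CD68 (a lysosomal protein, median 917) and CD79A (median 447). Of 14 endothelial genes, PECAM1 alone was detected, with a median of 625, and CDH5, VWF, KDR and TEK were on no array. Of 16 fibroblast and stellate cell genes, PDGFRA alone was detected, with a median of 501, and COL1A1, COL1A2, COL3A1, DCN, LUM and FAP were on no array. The hepatocyte, neuron and glia, and muscle and adipose lists had 3 of 17, 4 of 14 and 2 of 14 members detected, with MBP (myelin basic protein, median 2409) and TUBB3 (a beta tubulin, median 2214) the brightest of them.

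The values of ZEB1 and SMAD4 went against what PANC-1 is known for. As background, PANC-1 is described as expressing the mesenchymal factor ZEB1 and as keeping an intact SMAD4 gene. On these arrays ZEB1 and SMAD4 were each detected on 0 of 6 arrays, with SMAD4 at signals from 108 to 138 with a median of 121. Lipocalin 2 was among the brightest genes, and no known level of it in PANC-1 is given here for comparison. ZEB1 and SMAD4 were each read by 1 probe, and as stated above a dark probe may miss its RNA. The mesenchymal gene FN1 was read by several probes, each of them detected on 0 of 6 arrays. The identity of the cells was not tested, and they are called PANC-1 here as the labels do.

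TIMP1 was the brightest of its family. TIMP2 gave signals from 2016 to 2374 with a median of 2208, TIMP3 gave signals from 401 to 481 with a median of 443 and TIMP4 gave signals from 299 to 348 with a median of 305. TIMP2 was thus well above background, and TIMP3 and TIMP4 were dim, at the 23.4 and 6.48 percentiles. RECK, a membrane-anchored metalloproteinase inhibitor, was on no array. With a detection p of 0.01 the detected members numbered 2.

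Of 26 measured metalloproteinase genes, the targets of this family, 9 were detected and 16 were on no array. The interstitial collagenase MMP1 gave signals from 4502 to 5007 with a median of 4856 and the membrane-bound ADAM15 gave signals from 4312 to 4961 with a median of 4538. They lay at the 91.0 and 90.3 percentiles, above the other members. The sheddases ADAM17, ADAM10 and ADAM9 had medians of 983, 738 and 637, and ADAM12 one of 480.2. The gelatinases MMP2 and MMP9, the stromelysin MMP3, matrilysin MMP7, the neutrophil collagenase MMP8 and MMP11 were on no array. MMP1 was the matrix metalloproteinase detected on all arrays, and MMP10 was detected on 2.

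Of 28 measured other secreted proteinases and inhibitors, 21 were detected. The cysteine proteinase inhibitor cystatin C (CST3) gave signals from 7696 to 10017 with a median of 8365. The elastase inhibitor elafin (PI3) gave signals from 5045 to 6145 with a median of 5657 and the lysosomal proteinase CTSL (cathepsin L) gave signals from 4964 to 5769.6 with a median of 5503. The coagulation inhibitor TFPI, the tissue plasminogen activator PLAT and its inhibitor SERPINE2 had medians of 5346, 3778 and 3843. Plasminogen (PLG), SERPINI1, SPINT1, CST6, KLK6 and A2M were on no array. The activator and its inhibitor were thus both well above background, while their substrate plasminogen, made mainly by liver, was within it.

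Of 36 measured cytokine and chemokine genes, 20 were detected and 7 of those lay above the 90th percentile of detected genes. Beside LCN2, the neutrophil chemokine CXCL8 (interleukin 8) gave signals from 13222 to 14663 with a median of 14116, at rank 47. The interleukins IL18 and IL1B, which are released after cleavage by caspase 1, gave signals from 8588 to 10079 with a median of 8931 for IL18 and signals from 8057 to 9286 with a median of 8555 for IL1B. The migration inhibitory factor MIF gave signals from 8997 to 10133 with a median of 9553. The monocyte chemokine CCL2 gave signals from 6185 to 7396 with a median of 6774. CASP1, the gene of that caspase, was on no array, and so were IL1RN (the interleukin 1 receptor antagonist), IL12A, IL23A, IL33, CSF1 and TNF. TNF gave signals from 117 to 127 with a median of 124, far from the signals of CXCL8 and IL1B. CXCL1 gave signals from 2092 to 3219 with a median of 2681 and was the detected bright gene with the widest spread between arrays.

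Of 40 measured growth factor genes, 19 were detected (47.5%), near the 44.2% of all named genes. None of the 19 lay above the 90th percentile. VEGFB gave signals from 2466 to 2808 with a median of 2596 and the stress cytokine GDF15 gave signals from 2103 to 2592 with a median of 2516. HBEGF, a ligand of EGFR, had a median of 1362. The heparin binding MDK, progranulin (GRN) and BMP2 had medians of 1312, 1002 and 875. EGF, BTC, VEGFC, PGF, FGF1 and FGF5 were on no array. Of 24 growth factor binding proteins and antagonists, 11 were detected (45.8%), also near the share of all named genes. They were led by IGFBP3 at signals from 2105 to 2614 with a median of 2429.5 and IGFBP6 with a median of 2076. The Wnt antagonist DKK1 and the binding proteins IGFBP4, IGFBP1 and LTBP2 had medians of 1351, 880, 806 and 598. IGFBP2, IGFBP7, FST, FSTL1, LTBP1 and NOG were on no array.

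Of 41 measured extracellular matrix genes, 18 were detected (43.9%), beside 44.2% of all named genes. The laminin chains LAMA5 and LAMC1, parts of basement membrane, gave signals from 5856 to 7569.6 with a median of 6598 for LAMA5 and signals from 4231 to 4837 with a median of 4286 for LAMC1. The matricellular proteins CCN2 and CCN1 had medians of 2685 and 2371. COL7A1 (anchoring fibrils) and COL8A1 had medians of 2154 and 2162. The fibrillar collagen genes COL1A1, COL1A2, COL3A1 and COL5A2, the basement membrane collagen chain COL4A1 and FN1 were on no array. Another basement membrane collagen chain, COL4A2, was detected on all 6 arrays, dimly, with signals from 319.5 to 468.6 and a median of 387.2. COL1A1 gave signals from 143 to 229 with a median of 177, within background. LAMA5 and LAMC1 were therefore well above background on arrays where COL1A1 was within it.

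At the surface, 11 of 16 measured tetraspanins and partners of TIMP1 were detected. The tetraspanins CD151 and CD81, which organise integrins and other receptors in the membrane, gave signals from 11592 to 13920 with a median of 13382 for CD151 and signals from 12355 to 13168 with a median of 13044 for CD81. The hyaluronan receptor CD44 gave signals from 9880 to 11112 with a median of 10151. These 3 genes lay above the 90th percentile. The tetraspanins TSPAN4, TSPAN3 and TSPAN13 had medians of 4248, 3385 and 2130.1, CD9 one of 1115 and CD82 one of 494. The endocytic receptor LRP1, which takes up complexes of TIMP1 with metalloproteinases, was on no array, as were the leukocyte tetraspanins CD37 and CD53. LRP1 gave signals from 128 to 269 with a median of 206, and its highest array came close to the detection limit.

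Of 24 measured integrin genes, 11 were detected (45.8%), near the 44.2% of all named genes. The shared beta chain ITGB1 gave signals from 8095 to 8925 with a median of 8550.3 and ITGB5, a partner of alpha V, gave signals from 5343 to 6073 with a median of 5718. The alpha chains ITGA2 (collagen), ITGAV (vitronectin), ITGA3 (laminin) and ITGA5 (fibronectin) had medians of 2895, 1937, 1417 and 742. ITGA7, ITGA8, ITGA9 and the leukocyte chains ITGAL, ITGAM and ITGAX were on no array. Chains that bind collagen, vitronectin, laminin and fibronectin were thus all among the named detected members.

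Of 34 measured receptor tyrosine kinases, 14 were detected (41.2%), beside 44.2% of all named genes. AXL was the brightest of them. The ephrin receptor EPHA2 gave signals from 1125 to 1333 with a median of 1256. EGFR gave signals from 778 to 890 with a median of 854 and the hepatocyte growth factor receptor MET gave signals from 802 to 931 with a median of 837, near the middle of the detected genes. ROR1 and EPHB4 had medians of 702 and 546. ERBB2, ERBB3, ERBB4, MST1R, IGF1R and FGFR1 were on no array, so EGFR was the member of its family that was detected. ERBB2 gave signals from 197 to 237 with a median of 224, close to the detection limit.

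Of 37 measured cytokine, death and TGF-beta receptors, 26 were detected. TGFBR2, the ligand binding chain of the TGF-beta receptor, gave signals from 7776 to 8578 with a median of 8162, and the death receptor TNFRSF21 gave signals from 7149 to 8575 with a median of 7636. IFNGR2 (interferon gamma), IL6ST (gp130), TNFRSF12A (TWEAK) and LTBR (lymphotoxin) had medians of 4830.1, 3550.2, 3394 and 3086. TGFBR1, the signalling partner of TGFBR2, was on no array, nor were IL1R1, IL6R, LIFR, FAS or CXCR2. Thus the receptors of CXCL8 and of the interleukin 1 cytokines in this list, CXCR2 and IL1R1, were within background on arrays where those ligands were bright.

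Of 39 measured tumour and stem cell surface antigens, 20 were detected. The thrombin receptor F2R gave signals from 11518 to 13826 with a median of 12605, the transferrin receptor TFRC gave signals from 9968 to 10968 with a median of 10603 and the amino acid transporter SLC7A5 gave signals from 8778 to 10267 with a median of 9219. BSG (basigin) had a median of 4069.9. The mucins MUC5B, MUC13 and MUC16, mesothelin (MSLN), CEACAM5 and PSCA, all used as markers of pancreatic carcinoma or of mucosa, were on no array. Of 23 measured genes of MHC and antigen processing, 13 were detected. B2M, the light chain of MHC class I, gave signals from 10518 to 12108 with a median of 11794. TAP1 and TAP2 (peptide transport), PSMB8 (immunoproteasome), HLA-E and HLA-F had medians of 1781, 1180.4, 1298, 1135 and 986. The class I regulator NLRC5, HLA-B and the class II genes HLA-DRB1, HLA-DPA1, HLA-DPB1 and HLA-DQB1 were on no array. The class II gene HLA-DRA was detected on all 6 arrays by 1 probe, dimly, and on 0 by its other probe. The detected probe gave signals from 324.5 to 395.9 with a median of 345.8. HLA genes vary in sequence between people and lines, and a probe made for 1 allele may miss another, so the HLA signals are uncertain.

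**Figure D4:**
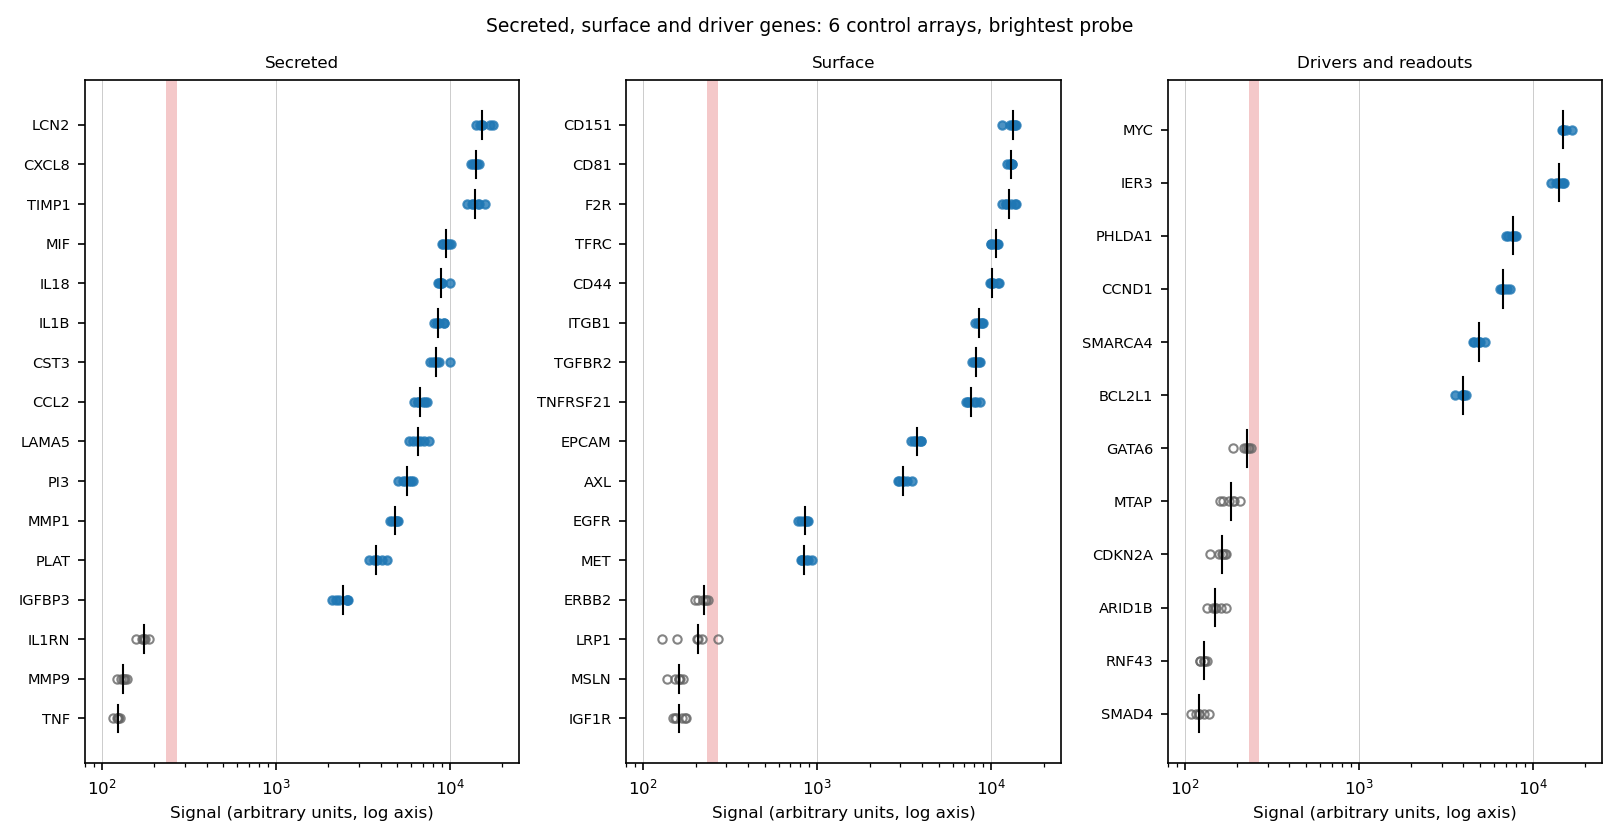
Linear signal in arbitrary units (x axis, log scale) of the brightest probe of named secreted, surface and driver or readout genes on the 6 control arrays, with circles, ticks and the red band as in the plot of lineage genes. LCN2, CXCL8 and TIMP1 among secreted genes, CD151 and CD81 among surface genes and MYC and IER3 among drivers and readouts lie at the bright end; TNF, IGF1R, CDKN2A and SMAD4 lie left of the band.

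Of 21 measured driver genes of pancreatic carcinoma, 13 were detected, led by MYC and TGFBR2. The chromatin remodelling genes SMARCA4 and ARID1A had medians of 4885 and 1774, and the DNA repair genes ATM and BRCA1 had medians of 918 and 873. CDKN2A, the cell cycle inhibitor locus deleted in many of these tumours and, as background, in PANC-1, was not detected by any of 3 probes, the brightest giving signals from 139 to 173 with a median of 165. MTAP, its neighbour on chromosome 9, was also on no array, with signals from 159.8 to 208 with a median of 184. GATA6, ARID1B and RNF43 were on no array as well, GATA6 with signals from 191 to 241 with a median of 227, close to the detection limit.

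The neighbours of the 2 dark tumour suppressor genes were read after their values were seen. Around CDKN2A, CDKN2B was detected on all 6 arrays, with a median of 586, as were IFNE and CAAP1 with medians of 318 and 276, and DMRTA1 was on 2 arrays. IFNA2, IFNA8, IFNA1, MTAP, ELAVL2 and TUSC1 were on none. IFNE and CAAP1, with signals from 286 to 354 and from 253 to 295, were close to the detection limit. As called, detected and undetected genes of the region were interleaved, but this order rests in part on those dim calls. Around SMAD4 on chromosome 18, SKA1, ME2, MEX3C and MBD2 were detected on all 6 arrays and ELAC1, the gene next to it, was on none with signals from 132 to 155 with a median of 150.2. MAPK4, MRO, DCC, POLI and STARD6 were also on none. Whether any of these genes is deleted was not tested, since the arrays measure RNA.

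Genes known to respond to MAPK signalling were nearly all detected, 22 of 24, with FOS and ATF3 each on 1 array. IER3, an early response gene, gave signals from 12775 to 15147 with a median of 14231, and PHLDA1 gave signals from 6989 to 8048 with a median of 7659. Cyclin D1 (CCND1) gave signals from 6444 to 7403 with a median of 6763. The phosphatase DUSP5, which dampens ERK, and the inhibitor SPRED1 had medians of 3605 and 3414. These genes have other inputs too, and the activity of the pathway was not measured.

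Of 27 measured targets of TGF-beta, Wnt, Hedgehog and Notch signalling, 9 were detected, 33.3% beside 44.2% of all named genes. The Notch ligand JAG1 gave signals from 2327 to 2835 with a median of 2542 and the receptor NOTCH1 had a median of 1619. TGIF1, ID1 and HES1 had medians of 1377, 1066 and 843. The inhibitors of differentiation ID2 and ID3, SKIL and the Wnt targets LEF1, LGR5 and NKD1 were on no array. Of 18 YAP and TEAD targets and partners 13 were detected, led by MYOF at signals from 3852 to 4398 with a median of 4032, with the transcription factors TEAD4 and TEAD2 at medians of 2835 and 2153, while AMOTL1, TEAD1, TEAD3 and LATS2 were on no array.

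The machinery of growth was bright. All 39 measured cytosolic ribosomal protein genes were detected, with a median percentile of 99, and 33 of them lay above the 90th percentile. RPL3 gave signals from 14392 to 17152 with a median of 14877, RPS12 signals from 13690 to 15294 with a median of 14725 and RPS6 signals from 13242 to 15821 with a median of 14022. Ribosomal protein genes have many processed pseudogenes, which their probes may also bind. Of 33 translation factors 31 were detected, with PABPC1 (the poly(A) binding protein) at a median of 13855 and EIF4A1 (a helicase) at 13516, and none was dark on all arrays. All 30 measured proteasome and heat shock genes were detected, led by HSP90AA1 at signals from 12840 to 15337 with a median of 14329 and HSPA8 with a median of 12801.

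Of 45 measured genes of actin, tubulin and the cytoskeleton, 41 were detected. The 4 on no array were the smooth muscle genes ACTA2, MYL9, TAGLN and CNN1. ACTA2, also a marker of activated stellate cells, gave signals from 197 to 225 with a median of 216, beside signals from 15527 to 17142 with a median of 16154 for cytoplasmic ACTB. Of 40 measured genes of the cell cycle and DNA replication 37 were detected, led by the replicative helicase subunit MCM7 at signals from 10176 to 12042 with a median of 10985 and the mitotic activator CDC20 at signals from 10056 to 11089 with a median of 10295. The mitotic kinase AURKA, the ribonucleotide reductase subunit RRM1 and the helicase subunit MCM3 had medians of 7980.4, 7089.8 and 6851. MKI67, the proliferation antigen, CCND2 and CCNE2 were on no array although the other members of this list were detected. MKI67 was read by 1 probe, which gave signals from 199.8 to 222 with a median of 208.

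Energy metabolism was likewise well represented. Of 27 measured glycolysis genes 20 were detected, with LDHA at signals from 13568 to 17786 with a median of 15885 and GAPDH, TPI1, ENO1 and PGK1 at medians of 14075, 13831, 13321 and 10992. LDHB, the other main lactate dehydrogenase subunit, was on no array, with signals from 164 to 184 with a median of 168. LDHA was thus near the top of the measured range, while the LDHB signal was within background and gives no level for its RNA. SLC2A2, HK3, PKLR, LDHC and PDK1 were also on no array. Of 33 measured genes of oxidative phosphorylation 32 were detected, led by COX7C, ATP5F1B (13452) and UQCRH (12628) as medians, and NDUFB4 was on no array. Of 25 cholesterol and fatty acid synthesis genes 23 were detected, with the desaturase SCD at signals from 9640.2 to 11336 with a median of 9948 and fatty acid synthase (FASN) at signals from 8465 to 9576 with a median of 9353, and the desaturase FADS2 was on no array.

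Stress and defence genes differed between lists. Of 26 measured NRF2 targets and metallothioneins 18 were detected, with thioredoxin (TXN) at signals from 15434 to 17565 with a median of 16022 and PRDX1 (a peroxiredoxin), TKT (transketolase) and MT2A (a metallothionein) at medians of 13899, 10831 and 8543. Heme oxygenase 1 (HMOX1) was on no array, with signals from 189.6 to 243 with a median of 221, nor were AKR1B10, AKR1C1, MT1F, MT1H or MT1M. Metallothionein and AKR1C genes are near copies, so their signals are uncertain. Of 27 measured genes that answer misfolded protein or amino acid shortage 22 were detected, led by the serine synthesis enzyme PHGDH (9567), the chaperone HSP90B1 (9009) and ATF4 (7822) as medians. Of 18 hypoxia targets 17 were detected, with DDIT4 and PLOD2 at medians of 6809.8 and 6422.

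Of 28 measured interferon-stimulated genes 21 were detected, but their median percentile was 39.4. IFITM3 and IFITM2, near copies that restrict virus entry, had medians of 8885 and 7688, and ISG15 gave signals from 3102 to 3656 with a median of 3381. IFI27, OAS2 and OASL were on no array. Of 15 NF-kB components and feedback genes 13 were detected. NFKBIA, the inhibitor that NF-kB itself induces, gave signals from 6872 to 8289 with a median of 7681, and NFKB1 and SOD2 had medians of 4608 and 3781. RELA had a median of 352 and TNFAIP3 one of 332, near the dim end of the detected genes. The chemokine CXCL8 and NFKBIA were thus bright on arrays where some other genes of the NF-kB list were dim.

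Of 27 cell death regulators 20 were detected. The survival gene BCL2L1 gave signals from 3562 to 4144 with a median of 3976, and CASP2, DIABLO, BIRC5 and MCL1 had medians of 3278, 2863, 2840.3 and 2130.5. BCL2 was detected on 1 array, and BCL2L11, BCL2A1, BMF, HRK and CASP1 were on none. The study's title concerns gemcitabine, a nucleoside drug that cells import, phosphorylate and incorporate, so its handling genes were read in these cells, whose labels name no gemcitabine. Of 22 measured genes 18 were detected, with NME1 at signals from 13685 to 16181 with a median of 15239, HMGA1 at a median of 7143, TYMS at 4539 and NT5C2 (a nucleotidase) at 2602. The importers SLC29A1 and SLC28A3 and the nucleotide hydrolase SAMHD1 were on no array, with SLC29A1 at signals from 174 to 196 with a median of 185. SLC29A1 was read by 1 probe. Of 29 measured HOX genes, which record position along the body axis, 12 were detected (41.4%), near the 44.2% of all named genes. They were led by HOXB5 (2745), HOXB2 (1923) and HOXB7 (1877) as medians, and the named members HOXB1, HOXB9 and HOXB13 were on no array.

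The spread between the 6 arrays depended on signal. The SD of the normalised log2 intensity had a median of 0.0839 over the 8870 detected genes, from 0.166 in the dimmest 2218 genes to 0.0545 in the brightest 2218. The overall median was 0.142 when arrays were scaled to a common median instead of quantile normalised. An SD over 0.2 occurred in 973 genes, of which 754 were among those dimmest 2218 genes and 12 were above the median signal. Those 12 were therefore the exceptions among well-measured genes.

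CXCL1 had the highest SD of them, 0.26, with a normalised log2 intensity of 11.64 on replicate 2 and 10.90 on replicate 6. S100A9, a calcium binding protein of inflammation, ran the other way, with 10.03 on replicate 2 and 10.64 on replicate 6. CXCL1, the aldo-keto reductase AKR1C2, the small Cajal body RNA SCARNA13, the chemerin gene RARRES2, RHBDF1, PLCXD1, the lysosomal proteinase gene CTSD and PNISR were each higher on both of replicates 1 and 2 than on either of 5 and 6. For AKR1C2 the values were 9.77 and 9.79 on replicates 1 and 2, and 9.35 and 9.28 on replicates 5 and 6. This grouping of replicates was read from the values of genes picked for their spread. Its share over all detected genes is not given, so it does not describe the arrays as a whole. TMEM267 was high on replicate 2, AEN on replicate 5 and CTSD on replicate 1, with 10.56 there and 9.92 on replicate 3. SLC35A5 was the remaining gene of the 12. The SDs of the 12 genes ran from 0.26 for CXCL1 down to 0.20 for AEN, and whether they follow culture, RNA or array was not tested, since the labels give no batch.

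**Figure D5:**
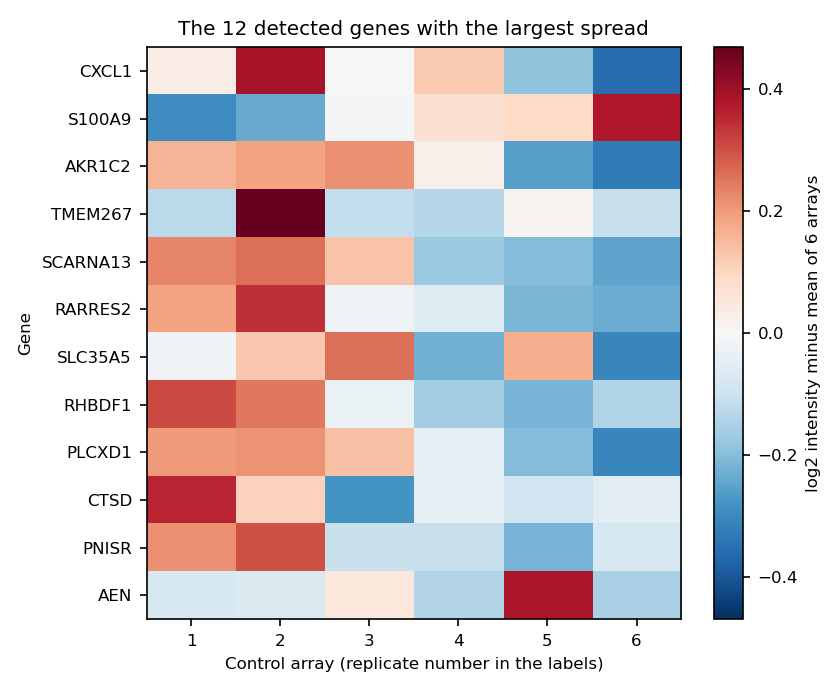
Normalised log2 intensity minus the mean of the 6 arrays (colour) for the 12 genes with the largest SD among detected genes of above-median signal (rows), on each control array (columns, by the replicate number in the labels). CXCL1 is highest on replicate 2 and lowest on replicate 6, S100A9 is highest on replicate 6, and TMEM267, AEN and CTSD each have 1 array above the rest.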

How the data were processed

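Signals and detection p-values of the 6 control arrays were used. Per the file headers, the deposited table held a linear signal intensity and a detection p-value for each probe and array, not normalised by the authors. No source used here names the software that made it. The submitters' processing notes list limma but not the step it served. Samples were assigned by title.

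Signals were background corrected, quantile normalised and put on a log2 scale with neqc of limma 3.58.1 in R 4.3.3, inferring the negative controls from detection p-values and adding an offset of 16. The offset pulls dim probes together, and quantile normalisation removes a shift common to all probes. The authors' deposited table of normalised intensity served as an alternative. The number of arrays, and not a read depth, limits precision.

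Of 47323 probes, 30113 were annotated with 1 symbol by the platform table, 8 with several and 17202 with none. For 30074 probes the symbol was brought up to date with RefSeq genes (GRCh38.p14). Each gene was read from its brightest probe detected on all 6 arrays or, where there was none, from its brightest probe. Promoters came from a RefSeq table of the same assembly.

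There is 1 group, so no group test was run. The analysis code was tested on simulated data. The gene lists were chosen with earlier results of these data known. Genes that could be named were the 5 markers, the 25 brightest and the 12 of largest spread among genes above the median signal. In lists of up to 17 genes any member could be named, and not every member was. In longer lists up to 6 brightest and up to 6 undetected members, in list order, could be named. Other genes were named after their values were seen: the neighbours of CDKN2A and SMAD4, the cytokine genes with the promoter motif, and FOS, ATF3, BCL2, MMP10, HLA-DRA and COL4A2. Some items are not reported here. Alternatives were other detection thresholds, other rules for a gene with several probes, other background corrections and normalisations, and leaving out each array.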

Additional observations from a re-analysis of the deposited data

Results flagged for a closer look

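A gene or list was set aside when 1 of the 6 arrays stood apart from the others, that is, when its gap to the nearest array, as a share of the range of the 6 values, exceeded Dixon's critical value for 6 values. Chance gives about 1 such case in 20. It occurred in 17 of 227 detected genes named above and in 1 of 46 gene lists, and the array that stood apart was each of the 6 at least 2 times, so no array collected most of the cases. All values are normalised log2 intensities. The causes were not tested.

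TMEM267 was highest on replicate 2, at 11.15, with the next array at 10.7. AEN, a nuclease gene, was highest on replicate 5, at 11.22 against 10.88 on the next array. These 2 genes were also among the 12 with the largest spread.

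Among surface and adhesion genes, the integrin chain ITGA5 was highest on replicate 1, at 9.376, and the next array gave 9.224. On replicate 3, ITGB1 was highest at 13.13, ITGB5 was lowest at 12.38 and the keratin KRT7 was highest at 11.19. The lymphotoxin receptor LTBR was highest on replicate 2, at 11.6, and the transferrin receptor TFRC was highest on replicate 6, at 13.42.

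Among signalling and repair genes, the kinase gene ATM was highest on replicate 6, at 9.709, SPRED1 was highest on replicate 3, at 11.71, and the transcription factor gene TEAD2 was lowest on replicate 5, at 10.76, with the next array at 10.95. The peptide transporter TAP2 was highest on replicate 4, at 10.1. Among genes of metabolism, RRM1 was lowest on replicate 1, at 12.56, with the next array at 12.77, and TYMS was highest on replicate 2, at 12.24. MT2A was highest on replicate 5, at 13.16, the ADP/ATP carrier SLC25A5 was lowest on replicate 6, at 13.79, and the respiratory subunit UQCRH was highest on replicate 4, at 13.74.

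In the hypoxia list, the mean deviation of the detected members from their means over the arrays was highest on replicate 2, at 0.0354, and the other 5 arrays lay between -0.00953 and -0.000312.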

How the results depend on the processing

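Counts moved with the detection threshold but stayed within 1.5 times of those reported. With p under 0.01 there were 9708 probes, 6506 genes and 556 list genes. Detection on at least 5 arrays gave 15222 probes and 9206 genes, and detection on at least 1 array gave 18144 probes, 10402 genes and 745 list genes. Requiring every probe of a gene gave 6617 genes. Leaving out each array in turn gave 14486 to 14690 probes, 8893 to 9006 genes and 681 to 687 list genes.

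Of 49 lists, 14 moved by more than 1.5 times under the stricter p, among them the metalloproteinase inhibitors, of which 2 stayed detected, the islet genes with 1 and the muscle and adipose genes with 0. Another 4 changes came with detection on at least 1 array, and none with an array left out. Dim members such as TIMP3 and TIMP4 are what the threshold decides.

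Taking the mean of all detected probes of a gene moved the percentile of KRT8 to 86.32, of KRT18 to 37.77 and of AXL to 81.93 (KRT8 has 1 detected probe, KRT18 and AXL have 2 each), and 14 of the 25 brightest genes remained. The percentiles of TIMP1 and VIM moved by less than the spread between arrays under every alternative run. The median SD was 0.142 with median scaling and 0.0668 without background correction, and 0.0812 to 0.0841 with an array left out. Of the 12 genes of largest spread, 7 to 11 remained with an array left out, 7 without replicate 6. No paired analysis was possible because a single group was used. The signal range limits what is seen of dim genes.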

Other observations

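Detection differed by class of transcript and by chromosome. Of 798 named long non-coding RNA genes on the arrays 129 were detected on all 6, of 561 microRNA genes 17, and of 279 small nucleolar RNA genes 80. Of 528 transcribed pseudogenes 116 were detected, and their probes may bind the parent genes. The share of measured protein-coding genes that was detected ran from 40.6% on chromosome X to 54.5% on chromosome 16, beside 47.8% over all of them. It was 44.8% on chromosome 18 and 46.2% on chromosome 9, the chromosomes of SMAD4 and CDKN2A. Both were near the overall share, and chromosomes 4, 11, 19 and X had lower ones.

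The first principal component of the deviations between arrays held 29.2% of their variance. Replicates 3 and 5 had weights of -0.6 and -0.52 on it, replicates 2, 4 and 6 weights of 0.35, 0.32 and 0.38, and replicate 1 a weight of 0.07. Replicates 3 and 5 also had the highest correlation of deviations of any pair, 0.074. Deviations from the mean of the same arrays tend to correlate negatively, so this value is not to be read as a lack of similarity. No reference for it was computed.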
